A study of Homo sapiens with 6 samples.

Results

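The Mediator complex was described here through the mRNA of its 33 subunits in 22Rv1 prostate cancer cells with and without knockdown of 1 of them, MED12. The members were the rows of the deposited gene counts whose gene name was on a list of 33 Mediator subunits, and all 33 were found among 62703 counted genes. The list held 7 subunits of the head, 9 of the middle, MED14 as the backbone, 9 of the tail and 7 of the kinase module, which included the paralog pairs MED12 and MED12L, MED13 and MED13L, and CDK8 and CDK19. All 33 also passed the filter on low counts and were among the 17901 genes tested, so that no member was lost before testing.

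Mediator is a large assembly that relays signals from transcription factors bound at enhancers to RNA polymerase II at promoters. The head and middle modules contact the polymerase, the tail is the main landing site of transcription factors, and MED14 holds these core modules together. The kinase module binds the core reversibly through MED13 or MED13L and carries a cyclin-dependent kinase, CDK8 or CDK19, with its cyclin CCNC, and MED12 activates that kinase. MED1 is the best known contact of nuclear receptors.

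The study asked what MED12 contributes in 22Rv1, a human prostate cancer line that resists the antiandrogen enzalutamide without having been selected for it. Cells received 25 pmol of a pool of siRNAs 24 h after seeding, either a non-targeting pool (siCtrl, n = 3) or a pool directed at MED12 (siMED12, n = 3), were given new medium 6 h later and were harvested 3 days after transfection. Poly(A) RNA was sequenced from all 6 libraries. The model was therefore 1 cell line, 1 pool per target and a transient knockdown, and neither group received another treatment. The study's methods state biological replicates for its experiments in general, but the labels only number these libraries and do not say that they were separate cultures, so that p-values measure the spread between them.

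Total counts per library lay between 16136699 and 17012788, and a member had between 45 and 3886 counts in a library. Levels are given in CPM (counts relative to library size, with TMM factors applied). Luminal prostate markers were detected in every library, and of the 6 given here, HOXB13 and TMPRSS2 were higher and KLK2 and KLK3 lower in siMED12 with the replicate number as a blocking term, while FOLH1 and STEAP2 did not pass. In the blocked fit 33.3% of all genes tested passed. HOXB13 and TMPRSS2 had log2 fold changes with the block of 0.39 and 0.17 (edgeR, adjusted p = 4.10e-10 and 0.0176). Neither passed without it (adjusted p = 0.224 and 0.718), and the TMPRSS2 groups overlapped. KLK2 was at 77.4 CPM on average in siCtrl and 27.8 in siMED12, and KLK3 at 37.0 and 15.1 CPM (log2 fold changes with the block -1.50 and -1.30, edgeR, adjusted p = 2.36e-19 and 5.12e-15, against 0.0537 and 0.0617 without it). Of the markers of other cell types, CD3E had no count, and PECAM1 and PTPRC had at most 2 and 3 counts. COL1A1 (14.9 to 27.4 CPM) and ALB (118.2 to 324.6 CPM) were also present. COL1A1 did not pass the test in either fit, and ALB was lower in siMED12 within all 3 pairs (percent changes of -29.8, -25.6 and -30.8, log2 fold change with the block -0.49, edgeR, adjusted p = 6.44e-12, against 0.480 without it). The part of these markers in the results was not tested. The libraries numbered 3 stood apart in both groups: chi-square values per degree of freedom were 24.7 to 41.3 for a library 3 against another of its group, and 10.4 and 10.9 for libraries 1 against 2. Deviations from the group means also went together in libraries of the same number, so that each count is given without and with a block for the replicate number, and results that rest on libraries 3 are given without them.

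The sequences of the 3 paralog pairs are shown first because the comparison of a silenced gene with its paralog depends on how far reads and siRNAs can tell them apart. Over the aligned coding bases, MED12 and MED12L were identical at 67.5%, MED13 and MED13L at 65.5%, and CDK8 and CDK19 at 75.8%. No stretch of 50 bases was shared within any pair. Of all 19-base stretches in the transcript of the first gene of each pair, 16 of 6883 were found in MED12L, 2 of 10443 in MED13L and 1 of 3047 in CDK19. The longest run shared by each pair is printed below in capitals, with 10 bases on either side in lower case, 5′ to 3′ on the coding strand (GRCh38), and each run lay within 1 coding exon.
MED12 (run at chrX:71128059-71128079, plus strand): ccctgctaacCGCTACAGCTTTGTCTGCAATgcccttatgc
MED12L (run at chr3:151365145-151365165, plus strand): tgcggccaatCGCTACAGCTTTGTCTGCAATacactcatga
MED13 (run at chr17:61950895-61950914, minus strand): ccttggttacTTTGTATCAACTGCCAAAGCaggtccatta
MED13L (run at chr12:115966152-115966171, minus strand): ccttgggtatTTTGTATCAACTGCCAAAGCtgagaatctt
CDK8 (run at chr13:26385256-26385274, plus strand): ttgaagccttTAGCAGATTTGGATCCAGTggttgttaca
CDK19 (run at chr6:110632098-110632116, minus strand): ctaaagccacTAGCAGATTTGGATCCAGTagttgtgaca
The capitals span 21 bases in MED12 and MED12L, 20 in MED13 and MED13L and 19 in CDK8 and CDK19. The sequences of the siRNAs were not used here, so where they match was not tested.

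Without the replicate block, MED12 was the 1 member of 33 that changed at an adjusted p below 0.05, and with the block 9 members did. MED12 (chrX:71118543-71144103, plus strand), the subunit that was silenced, was at 67.8, 77.7 and 72.6 CPM in siCtrl libraries 1 to 3. After MED12 knockdown, libraries 1 to 3 had 23.9, 15.0 and 30.1 CPM. Every siMED12 library was below every siCtrl library, and siMED12 library 2 was the lowest of all. The log2 fold change was -1.66 (SE 0.23, edgeR quasi-likelihood test, adjusted p = 0.0314), and 35.2%, 19.2% and 41.5% of the control mRNA remained within the pairs of the same number. In bulk RNA, fewer cells with MED12 mRNA and less MED12 mRNA per cell cannot be told apart. The adjusted p (edgeR) was above 0.05 when siCtrl library 1 (0.0818), siCtrl library 2 (0.186), siMED12 library 1 (0.108) or siMED12 library 2 (0.130) was left out, with log2 fold changes of -1.73, -1.61, -1.71 and -1.45. With the block the log2 fold change was -1.68 (edgeR, adjusted p = 1.52e-16). With replicate number 1, 2 or 3 left out, the blocked value was -1.79, -1.41 or -1.91 and passed each time. All these blocked fits, also the one with every library, have few residual degrees of freedom. Their p-values rest largely on the dispersion shared over genes. DESeq2's Wald test without the block gave -1.68 (adjusted p = 1.38e-10).

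Among all genes tested, 0.564% were called without the block, 0.151% higher and 0.413% lower in siMED12. Of the 33 members, 0 were called higher and 1 lower. At an unadjusted p below 0.05 the members were MED12, MED16 and MED19, which made 3 of 33 against 15.6% of all genes. DESeq2 and limma-trend also called no member higher and MED12 alone lower.

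With the replicate number as a block, 6 members were higher (MED13, MED13L, MED16, MED19, MED23 and MED25) and 3 lower (MED12, MED22 and MED30). These were 9 of 33 members, or 27.3%, against 33.3% of all genes tested. The shares count MED12, the siRNA target. Of the 32 other members, 6 were higher and 2 lower. In the direction of higher levels the share was 18.2% of members against 17.1% of all genes, and in the direction of lower levels 9.09% against 16.2%. The members' shares were thus near or below those of all genes. Without the block, the 95% interval of 22 of 33 members lay within 1.5-fold in either direction (median half-width 0.355 on the log2 scale), and with the block that of 29 of 33 (0.156). The exceptions with the block were MED12, MED17, MED19 and MED30.

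**Figure D1:**
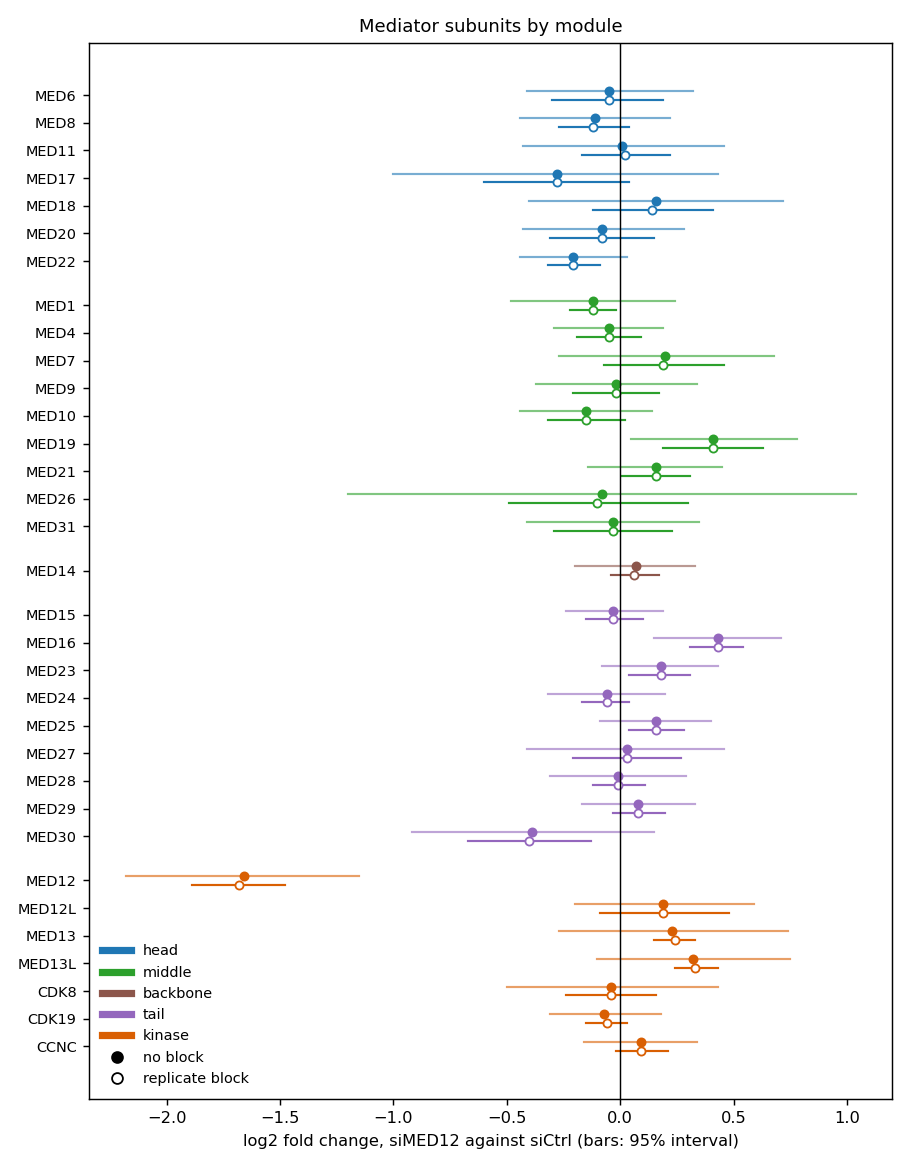
Log2 fold changes of the 33 members (siMED12 minus siCtrl, x axis) with 95% intervals, grouped by module, without and with the replicate block. MED12 stands alone at -1.66, and the 26 core members lie between -0.39 and 0.43.

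The other members of the kinase module are given next, starting with the paralog of the silenced gene. MED12L, a close relative of MED12 that can take its place in the module, was at 8.51, 8.03 and 7.62 CPM in siCtrl. It was at 9.56, 9.76 and 8.32 CPM in siMED12. Each siMED12 library was above the siCtrl library of its number, but siMED12 library 3 lay within the siCtrl range. The log2 fold change was 0.19 (95% interval -0.20 to 0.59, edgeR, adjusted p = 0.658) without the block and 0.19 (-0.09 to 0.48, adjusted p = 0.312) with it.

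MED13 and MED13L, which join the kinase module to the core, were among the most highly counted members. MED13 (chr17:61942605-62065278, minus strand) was at 176.6, 156.0 and 105.0 CPM in siCtrl and at 207.8, 177.6 and 129.4 CPM in siMED12. MED13L (chr12:115957905-116277693, minus strand) was at 186.1, 194.3 and 123.6 CPM in siCtrl and at 230.8, 227.2 and 171.8 CPM in siMED12. Both were lowest in libraries 3 of either group, the groups overlapped, and each siMED12 library was above the siCtrl library of its number, by 13.8% to 23.2% for MED13 and by 16.96% to 39.1% for MED13L. Without the block neither passed the test, with log2 fold changes of 0.23 for MED13 (95% interval -0.27 to 0.74, edgeR, adjusted p = 0.685) and 0.32 for MED13L (-0.10 to 0.75, adjusted p = 0.461). With the block both rose, MED13 by 0.24 (0.15 to 0.33, adjusted p = 5.32e-05) and MED13L by 0.33 (0.24 to 0.43, adjusted p = 2.10e-07). Both calls held without the libraries numbered 3, at 0.21 (adjusted p = 0.000718) and 0.27 (adjusted p = 3.67e-06). After a correction of the blocked fit for GC content and transcript length, MED13 was at 0.12 (adjusted p = 0.0315) and MED13L at 0.21 (adjusted p = 0.000247).

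FBXW7, the F-box protein that marks MED13 and MED13L for degradation, had 29.6, 25.9 and 21.5 CPM in the siCtrl libraries. In siMED12 it had 34.9, 24.8 and 22.6 CPM. Its groups overlapped (log2 fold change 0.10, 95% interval -0.35 to 0.55, edgeR, adjusted p = 0.872).

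CDK8 and CDK19 are the alternative kinases of the module, and CCNC (cyclin C) is the cyclin they share. CDK8 was at 21.1, 20.6 and 14.7 CPM in siCtrl and at 21.7, 18.6 and 14.7 CPM in siMED12, and CDK19 at 167.2, 175.2 and 143.1 CPM in siCtrl and at 161.4, 161.5 and 141.1 CPM in siMED12. The groups overlapped for both kinases, and both were lowest in libraries 3. CDK8 had a log2 fold change of -0.04 (95% interval -0.50 to 0.43, edgeR, adjusted p = 0.963) and CDK19 of -0.07 (-0.31 to 0.18, adjusted p = 0.839). With the block the intervals were -0.24 to 0.16 for CDK8 and -0.15 to 0.03 for CDK19. With the correction for GC content and length added to the block, CDK19 passed the threshold at -0.16 (adjusted p = 0.00244). CCNC was at 66.5, 72.8 and 60.7 CPM in siCtrl and at 70.6, 76.7 and 65.5 CPM in siMED12. It was 5.36% to 8.05% higher within the pairs and did not pass the test (log2 fold change 0.09, 95% interval with the block -0.02 to 0.21, edgeR, adjusted p = 0.768 without and 0.230 with the block).

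**Figure D2:**
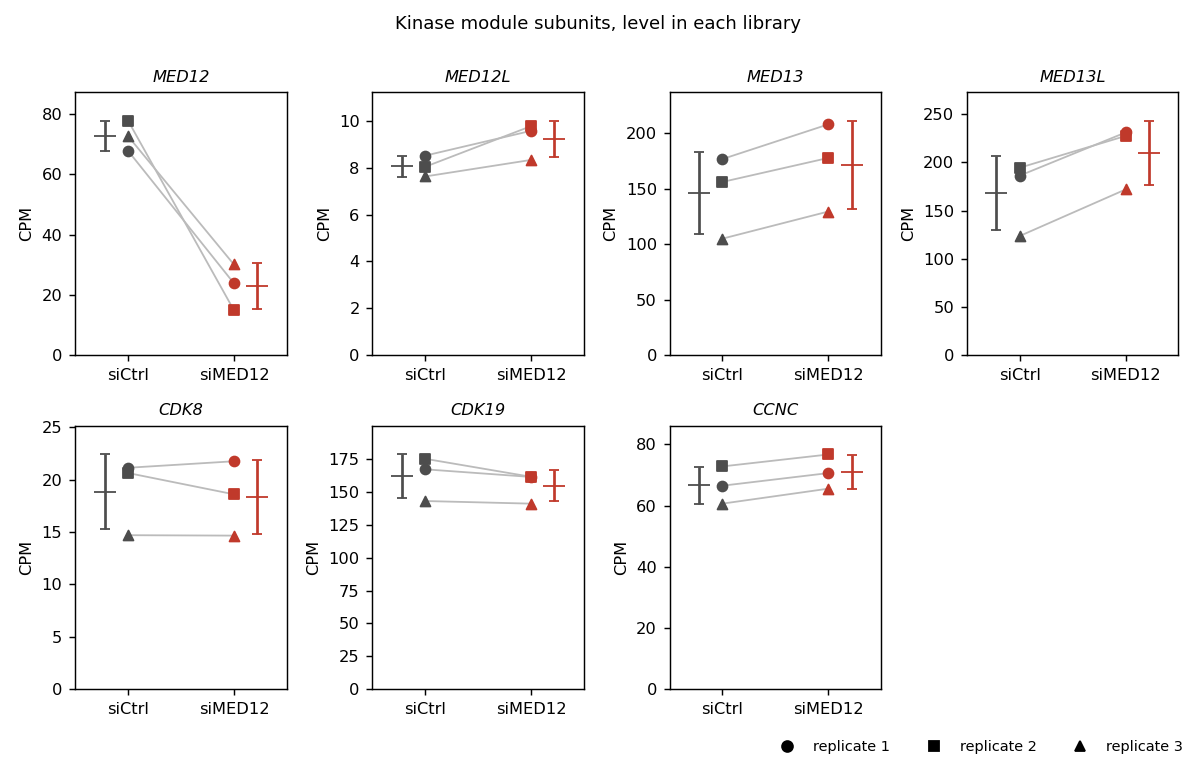
Levels of the 7 kinase module members in CPM (y axis from 0 in each panel) in the 3 siCtrl and 3 siMED12 libraries, with markers and grey lines for the replicate number and bars for mean ± SD. MED12 separates the groups at 67.8 to 77.7 against 15.0 to 30.1 CPM, whereas the groups of the other 6 members overlap.

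Over the 6 kinase module members other than MED12, the median log2 fold change was 0.14, with 4 above 0 and 2 below. The median over all genes tested was 0.02, with 9377 above 0 and 8524 below. The kinase median was 0.13, 0.13 and 0.12 in the 3 pairs, and it was 0.06 after the correction for GC content and length. It also depended on single libraries, at 0.03 without siCtrl library 3, 0.07 without siMED12 library 1 or siMED12 library 2, and 0.21 without siMED12 library 3. Each of these omissions leaves a replicate number in 1 group only. In the blocked fit without replicate number 1, 2 or 3 the median was 0.13, 0.10 or 0.15.

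The share of each paralog in its pair was compared next. For MED12 and MED12L the share must shift with any knockdown, since MED12 is the siRNA target, and nearly all of the shift came from MED12 (log2 fold change -1.66, against 0.19 for MED12L, which did not pass its test). RPKM values (CPM divided by kilobases of merged exons) put both paralogs on 1 scale. MED12L made up 13.2%, 11.1% and 11.3% of the pair in siCtrl and 32.6%, 44.1% and 25.0% in siMED12. The groups did not overlap, and the mean share was 11.8% ± 1.16 in siCtrl and 33.9% ± 9.59 in siMED12 (SD, n = 3 each). The log2 ratio of MED12L to MED12 was 1.91 higher in siMED12 (exact permutation test, two-sided, p = 0.1, and 0.3 after Benjamini-Hochberg adjustment over the 3 pairs), where 0.1 is the smallest p that 3 against 3 libraries allow. This restates the knockdown and is no evidence of a change in MED12L. It was higher by 1.67, 2.66 and 1.40 within the pairs 1 to 3. With the longest transcript as the length, the mean share was 8.16% in siCtrl and 25.5% in siMED12.

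The combined level of MED12 and MED12L was 4.501, 5.04 and 4.72 RPKM in siCtrl and 2.04, 1.54 and 2.32 RPKM in siMED12. The sum in siMED12 was 41.4% of that in siCtrl on average, and the groups did not overlap. MED13 and MED13L together were at 16.6 ± 4.02 RPKM in siCtrl and 19.9 ± 4.08 in siMED12, and CDK8 and CDK19 together at 25.1 ± 2.91 and 24.1 ± 2.23 (mean ± SD, n = 3 each). The groups overlapped in both sums. The size of a sum depends on the length used: MED13L alone was at 5.11 RPKM on average in siCtrl with merged exons and at 16.99 with its longest transcript. Within libraries of the same number, MED13 and MED13L together went from 19.6 to 23.4, 18.2 to 20.9 and 12.05 to 15.4 RPKM. CDK8 and CDK19 together went from 26.3 to 25.7, 27.3 to 25.05 and 21.8 to 21.5 RPKM.

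The shares within the other pairs overlapped between the groups. MED13L made up 30.8% ± 1.80 of its pair in siCtrl and 32.3% ± 2.04 in siMED12 (log2 ratio 0.10 higher, exact permutation p = 0.4, adjusted 0.6), and CDK19 84.3% ± 1.38 and 84.0% ± 1.77 (difference in log2 ratio -0.03, exact permutation p = 0.9, adjusted 0.9). Within the library pairs 1 to 3, the log2 ratio of MED13L to MED13 was higher in siMED12 by 0.08, 0.04 and 0.17. The ratio of CDK19 to CDK8 differed by -0.09, 0.03 and -0.02. The permutation test did not use these library pairs. The share of MED13L depended on the length used. With the longest transcript in place of the merged exons it was 55.0% and 56.7%, because the merged exons of MED13L span 32862 bases and its longest transcript 9885. CDK19 was the more abundant kinase mRNA by either length, at 80.6% of its pair in siCtrl with the longest transcript.

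**Figure D3:**
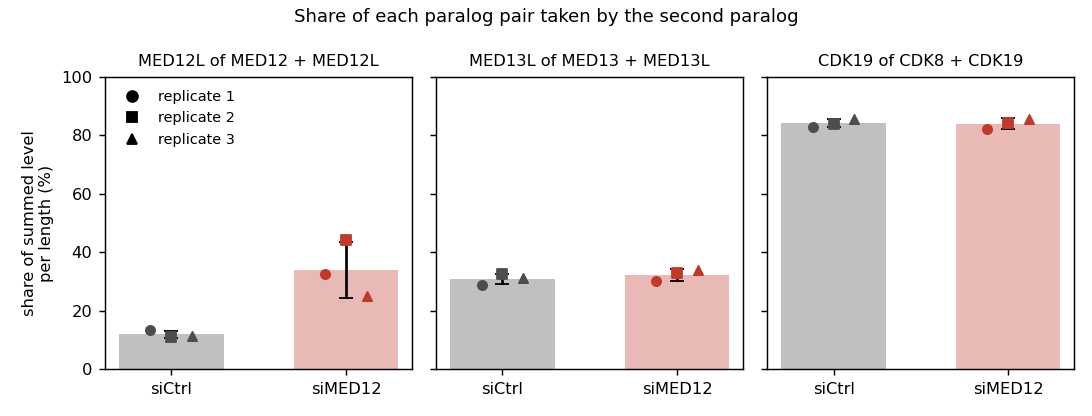
Share of each paralog pair's summed RPKM contributed by MED12L, MED13L and CDK19 (y axis, percent) in the 3 siCtrl and 3 siMED12 libraries, with mean ± SD. MED12L is at 11.1% to 13.2% of its pair in siCtrl and at 25.0% to 44.1% in siMED12, whereas the groups overlap in the other pairs.

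The core modules showed no common direction. The median log2 fold change was -0.08 in the head (2 of 7 above 0), -0.03 in the middle (3 of 9) and 0.03 in the tail (5 of 9), and MED14 was at 0.07. In pairs 1 to 3 the head median was -0.13, -0.03 and -0.16. The middle median was -0.10, 0.05 and 0.01, and the tail median 0.01, 0.06 and 0.08. Over the 26 core members the median log2 fold change was -0.02, with 11 above 0 and 15 below and a range from -0.39 (MED30) to 0.43 (MED16), beside 0.02 over all genes. No core member passed the test without the block. With it, 4 of 26 rose (against 17.1% of all genes) and 2 fell (against 16.2%): MED22 in the head, MED19 in the middle, and MED16, MED23, MED25 and MED30 in the tail. The placement of some metazoan subunits differs between schemes. With MED19 and MED27 to MED30 counted with the head, the tail median was 0.16 and the head median -0.03.

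In 4 members the siMED12 libraries did not overlap the siCtrl libraries. MED16 and MED19 were higher in siMED12 (6.06% of members, against 11.2% of all genes), and MED12 and MED22 were lower (6.06%, against 10.9% of all genes). Without MED12, the siRNA target, 1 of 32 members was lower in this way.

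MED16 had the largest log2 fold change of the core. MED16 (chr19:867630-893218, minus strand), a tail subunit that forms a submodule with MED23 and MED24, was at 54.0, 61.8 and 52.0 CPM in siCtrl and at 70.8, 85.7 and 69.4 CPM in siMED12. All siMED12 libraries were above all siCtrl libraries, by 31.1%, 38.6% and 33.5% within the pairs. In log2 terms MED16 differed by 0.43 (SE 0.12, edgeR, unadjusted p = 0.00717, adjusted p = 0.148) without the block and 0.43 (SE 0.06, adjusted p = 1.78e-07) with it. The blocked value lay between 0.38 and 0.47 under the other scalings, the correction for GC content and length and the omission of each replicate number, and it passed the threshold in each. The exons of MED16 share 255 bases with CFD on the opposite strand, which was at 30.04, 31.6 and 32.7 CPM in siCtrl and at 21.6, 16.5 and 23.2 CPM in siMED12, in the other direction. Whether strand was used in counting is not given in the sources used here.

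Of the partners of MED16, MED24 was at 108.7, 119.6 and 113.4 CPM in siCtrl and at 93.5, 114.8 and 120.0 CPM in siMED12, and the groups overlapped. MED23 (chr6:131573966-131628242, minus strand), a tail subunit contacted by growth factor-responsive activators, was at 51.9, 43.4 and 44.1 CPM in siCtrl and at 52.4, 50.2 and 55.0 CPM in siMED12. The difference was below 1% in the first pair and 15.6% and 24.5% in the others. MED23 passed the test only with the block (log2 fold change 0.18, 95% interval 0.04 to 0.31, edgeR, adjusted p = 0.0375, against 0.506 without it), and the call was lost without the libraries numbered 2 (log2 fold change 0.14, adjusted p = 0.206) or 3 (0.11, adjusted p = 0.359) and after the correction for GC content and length (log2 fold change 0.08, adjusted p = 0.402).

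MED25 (chr19:49818282-49840383, plus strand), a tail subunit that binds acidic and ETS-family activators, was at 53.3, 54.5 and 61.4 CPM in siCtrl and at 60.8, 59.8 and 68.2 CPM in siMED12. The increase was 9.59% to 14.1% within the pairs, and the groups overlapped. The log2 fold change of 0.16 passed with the block (edgeR, adjusted p = 0.0377, against 0.542 without it), and not when the libraries of any 1 number were left out, although the value stayed at 0.12, 0.14 and 0.16 without numbers 1, 2 and 3 (adjusted p = 0.251, 0.132 and 0.115). MED25 shares 1438 exonic bases with genes on the opposite strand, among them PTOV1-AS1 at 8.95 to 16.03 CPM.

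MED30, a metazoan-specific subunit, was at 13.3, 10.8 and 9.81 CPM in siCtrl and at 11.3, 7.66 and 6.95 CPM in siMED12. The groups overlapped, and each siMED12 library was below its siCtrl partner, with percent changes of -14.9, -28.8 and -29.2. MED30 fell with the block (log2 fold change -0.40, 95% interval -0.67 to -0.13, edgeR, adjusted p = 0.0182, against 0.486 without it). Without the libraries numbered 2 or 3 the value stayed at -0.38 and -0.35 but no longer passed (adjusted p = 0.0715 and 0.0903).

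MED15, which binds the sterol regulators of the SREBP family, was at 54.6 to 60.4 CPM in siCtrl and at 55.5 to 58.2 CPM in siMED12 (log2 fold change -0.03, edgeR, adjusted p = 0.934). MED27, MED28 and MED29 had log2 fold changes of 0.03, -0.01 and 0.08 and did not pass the test in either fit.

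In the middle module, MED19 (chr11:57703710-57712221, minus strand), which lies at the contact with the polymerase, was at 15.8, 14.0 and 16.3 CPM in siCtrl and at 17.1, 23.1 and 21.4 CPM in siMED12. The groups did not overlap, although siMED12 library 1 was only 8.10% above its partner while the others were 64.5% and 31.0% above theirs. In log2 terms MED19 differed by 0.41 (SE 0.16, edgeR, adjusted p = 0.265) without the block and 0.41 (SE 0.11, adjusted p = 0.00269) with it. The increase rested on the libraries numbered 2: without them it was 0.23 (adjusted p = 0.195).

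MED1, the subunit that contacts nuclear receptors, was at 125.2, 129.8 and 91.8 CPM in siCtrl and at 114.9, 115.1 and 89.1 CPM in siMED12. Each siMED12 library was below its partner, with percent changes from -11.4 to -2.90, and the groups overlapped. The log2 fold change of -0.12 did not pass the test without the block (edgeR, adjusted p = 0.790) or with it (adjusted p = 0.0689). The blocked call was sensitive to the setting: MED1 passed with DESeq2 size factors (-0.12, adjusted p = 0.0417), with the correction for GC content and length (-0.23, adjusted p = 0.000204) and without the libraries numbered 3 (-0.15, adjusted p = 0.0490). MED1 is named with its values because of that change, although it lay outside the rule for named members. The other 7 middle members (MED4, MED7, MED9, MED10, MED21, MED26 and MED31) had log2 fold changes between -0.15 and 0.20 and did not pass in either fit.

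In the head, MED22 (chr9:133338312-133348131, minus strand), a small subunit that pairs with MED11, was at 74.4, 76.2 and 82.0 CPM in siCtrl and at 66.9, 61.3 and 73.4 CPM in siMED12. Every siMED12 library was below every siCtrl library, with percent changes of -9.98, -19.5 and -10.5 within the pairs. In log2 terms MED22 differed by -0.21 (SE 0.10, edgeR, adjusted p = 0.390) without the block and -0.21 (SE 0.06, adjusted p = 0.00386) with it. The blocked call held when each replicate number was left out and under the other scalings and the correction, with values between -0.25 and -0.17. MED11 itself was at 0.01, and the scaffold subunit MED17 at -0.28 (95% interval with the block -0.60 to 0.04). MED18 had 1 siMED12 library, number 1, at 21.4 CPM, and the other 5 libraries lay between 11.8 and 16.3 CPM.

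MED14, the backbone that spans the head, middle and tail, was at 93.9, 108.6 and 91.6 CPM in siCtrl and at 93.1, 115.2 and 99.6 CPM in siMED12. The groups overlapped, and MED14 did not pass the test in either fit (edgeR, adjusted p = 0.849 without and 0.357 with the block).

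**Figure D4:**
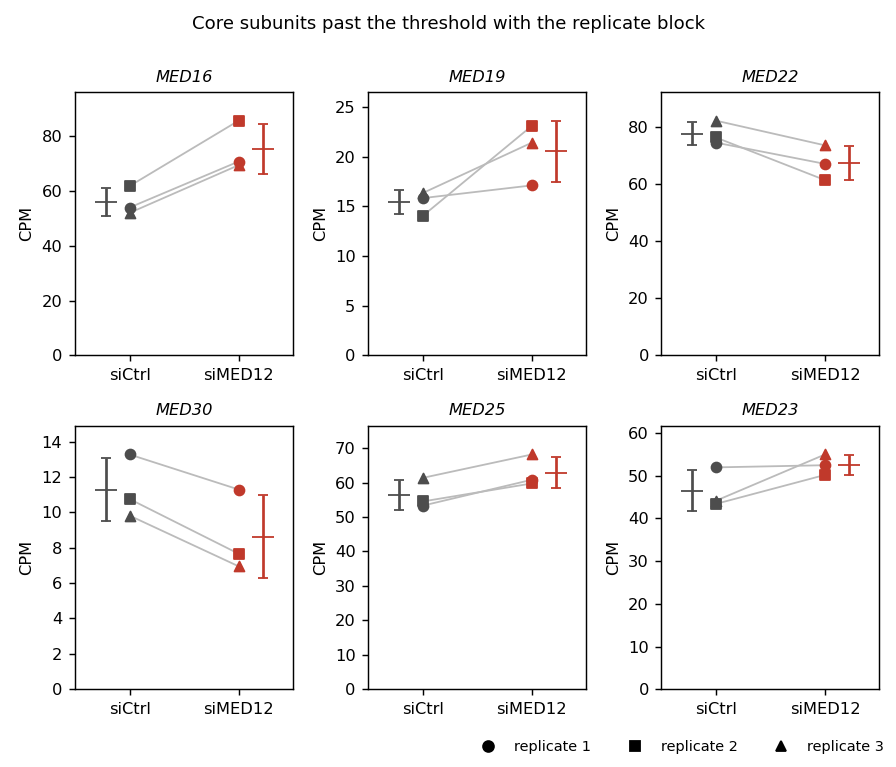
Levels of the 6 core members called with the replicate block, in CPM (y axis from 0 in each panel), in the 3 siCtrl and 3 siMED12 libraries, with markers and grey lines for the replicate number and bars for mean ± SD. The groups do not overlap for MED16, MED19 and MED22, and they overlap for MED23, MED25 and MED30.

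In most members the range over the replicate numbers was larger than the difference between the groups. A range over 3 numbers tends to exceed 1 difference between group means by noise alone, so this comparison is a description only. In 27 of 33 members (81.8%) the mean over both groups spanned more between replicate numbers than between siMED12 and siCtrl, against 72.6% of all genes tested. The 6 exceptions were MED12, MED12L, MED16, MED19, MED22 and MED23. The mean was lowest in replicate number 3 for 21 of 33 members, against 41.25% of all genes, and the median difference of number 3 from number 1 was -0.12 on the log2 scale over the members and -0.01 over all genes. The largest differences were in MED26 (-1.30), which recruits elongation factors, MED17 (-0.83) and MED13 (-0.72). MED26 was at 7.32 CPM in siCtrl library 1 and 7.31 CPM in siMED12 library 1, and between 2.63 and 3.42 CPM in the other 4 libraries. What the replicate numbers stand for is not given in the labels.

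Levels per length were compared in siCtrl. The 33 members spanned 46.6-fold, with a median of 7.34 RPKM. CDK19 (21.2 ± 2.18 RPKM), MED29 (19.9 ± 1.74), MED24 (16.4 ± 0.786) and MED4 (16.3 ± 1.09) were highest, and MED26 (0.851 ± 0.456), MED12L (0.561 ± 0.0310) and MED17 (0.454 ± 0.148) were lowest (mean ± SD, n = 3). Of the 32 neighbouring pairs in the order, 28 had overlapping siCtrl ranges, so that most places are not distinct. The 4 separated neighbours were MED29 above MED24, MED23 above MED15, MED31 above MED20, and MED6 above MED26. MED12 was at rank 25 with 4.19 ± 0.288 RPKM in siCtrl and at rank 30 with 1.32 ± 0.439 RPKM in siMED12, where it still lay above MED26, MED12L and MED17. With the longest transcript as the length, CCNC moved from rank 10 to 1 and MED13L from rank 22 to 9. MED17 was then at rank 31 with 1.48 RPKM, and MED12L was lowest at rank 33 with 0.746 RPKM. MED26 and MED17 share 2235 and 2156 exonic bases with other genes on the same strand. The effect of this sharing on their levels was not tested.

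**Figure D5:**
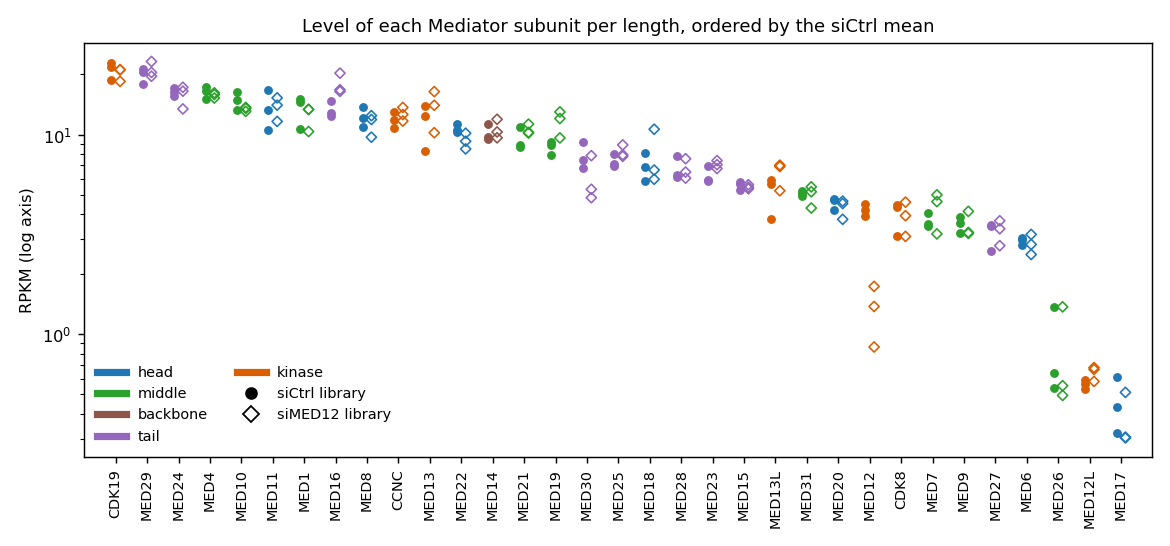
Levels of the 33 members in RPKM (log axis) in the 3 siCtrl and 3 siMED12 libraries, ordered by the siCtrl mean. CDK19 is highest at 21.2 and MED17 lowest at 0.454, and MED12 is the member whose siMED12 libraries lie farthest below its siCtrl libraries.

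Promoters are shown for MED13L, MED16 and MED19, members from the kinase, tail and middle modules that were higher in siMED12 with the block. RefSeq windows from 250 bases before to 50 bases after a start site matched 25 of 33 members (30 windows, GRCh38.p14). Capitals mark matches on either strand to the E-box CACGTG, which MYC and related factors bind, the GC box GGGCGG, the CCAAT box CCAAT and the TATA box TATAAA. The ETS core CCGGAA was also searched. Neighbouring GC boxes overlap in MED13L, where they are printed as 1 run of capitals.
MED13L (chr12:116277644-116277943, minus strand): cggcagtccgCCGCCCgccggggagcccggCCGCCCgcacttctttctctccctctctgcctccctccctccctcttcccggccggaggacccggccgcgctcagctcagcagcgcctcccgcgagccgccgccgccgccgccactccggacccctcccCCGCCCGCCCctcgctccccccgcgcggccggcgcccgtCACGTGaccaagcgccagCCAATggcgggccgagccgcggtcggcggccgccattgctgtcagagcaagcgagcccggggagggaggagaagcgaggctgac
MED16 (chr19:893138-893437, minus strand): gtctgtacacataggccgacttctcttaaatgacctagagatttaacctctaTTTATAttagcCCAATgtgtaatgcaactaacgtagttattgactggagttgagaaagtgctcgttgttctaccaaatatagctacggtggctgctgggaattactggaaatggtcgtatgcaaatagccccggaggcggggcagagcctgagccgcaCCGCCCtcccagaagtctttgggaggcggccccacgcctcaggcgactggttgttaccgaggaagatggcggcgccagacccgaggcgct
MED19 (chr11:57712166-57712465, minus strand): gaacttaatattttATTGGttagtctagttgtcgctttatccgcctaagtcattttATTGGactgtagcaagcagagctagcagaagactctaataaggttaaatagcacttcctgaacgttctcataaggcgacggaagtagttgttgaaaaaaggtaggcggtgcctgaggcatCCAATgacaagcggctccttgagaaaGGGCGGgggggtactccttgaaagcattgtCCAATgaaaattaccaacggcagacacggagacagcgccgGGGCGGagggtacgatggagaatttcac
The MED13L window held 1 E-box, 4 GC boxes and 1 CCAAT box, the MED16 window 1 GC box, 1 CCAAT box and 1 TATA box, and the MED19 window 2 GC boxes and 4 CCAAT boxes. Among all 35116 windows, 7.3% held the E-box, 17.2% the ETS core, 45.0% the GC box, 34.6% the CCAAT box and 11.5% the TATA box. Among the 30 member windows the shares were 6.7%, 36.7%, 60.0%, 36.7% and 6.7%. Among the members with a window the E-box was found in MED13L and CDK8, and CDK8 did not pass the test in either fit. The TATA box match in MED16 starts at base 53 of the 300 printed. The matches describe these letters and were not tested.

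The general transcription factors and TFIID, which assemble with Mediator at promoters, served as the surrounding lists. Of 18 general transcription factor genes 17 were tested, and 0 were called in either direction without the block (1 at an unadjusted p below 0.05, median log2 fold change -0.01). With the block 1 rose (against 17.1% of all genes) and 1 fell (against 16.2%): GTF2A1, a TFIIA subunit (0.20, edgeR, adjusted p = 0.00246), and CCNH, the cyclin of the TFIIH kinase (-0.26, adjusted p = 0.00217). The GTF2A1 call was lost after the correction for GC content and length (0.11, adjusted p = 0.103) and without the libraries numbered 1 (0.13, adjusted p = 0.161). Of 13 TFIID genes, 0 were called without the block (1 at an unadjusted p below 0.05, median 0.04), and 2 rose and 2 fell with it, or 4 of 13 against 33.3% of all genes. DESeq2 and limma-trend without the block called 0 genes of either list. The largest of these were TAF7 (0.31, edgeR, adjusted p = 2.38e-05) and TAF3 (-0.48, adjusted p = 8.35e-05). TAF7 was at 83.2, 78.6 and 86.5 CPM in siCtrl and at 92.9, 110.2 and 105.5 CPM in siMED12, without overlap. TAF3 was at 33.0, 28.6 and 18.4 CPM in siCtrl and at 26.9, 17.4 and 13.6 CPM in siMED12, with overlap and lowest in libraries 3.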

How the data were processed

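The authors captured poly(A) RNA, had strand-specific libraries sequenced by a service provider, and counted reads per gene with Rsubread against GRCh38.p13 and Gencode release 43. The version, and the use of strand and of reads with several matches in counting, are not given in the sources used here. The deposited counts are raw counts for 62703 genes. The deposited log2 CPM values, written with decimal commas, cover 17901 genes and were recomputed from the counts with edgeR (TMM, prior count 2) to within 4.96e-09.

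The test was run in edgeR (version 4.0.16, under R version 4.3.3), with its expression filter, TMM scaling and quasi-likelihood F-test, two-sided, and Benjamini-Hochberg adjustment over 17901 genes at 0.05. Treatment was the only term of the main fit, since the study's description of its edgeR test names no block. A legend of the study mentions a heatmap of these cells after batch correction, with the batch not named, so the authors may have modelled one. Same-numbered libraries deviated together from their group means, with correlations of the deviations in log2 CPM of 0.532, 0.373 and 0.643. Other combinations had -0.46 to -0.0233. Deviations cancel within a group, so that positive values for the same numbers push the other combinations towards negative values. That side of the contrast is no separate evidence of pairing. From the positive same-number values, the numbers were taken to pair the libraries. The origin of this pairing is not given in the labels. No libraries were duplicates (chi-square per degree of freedom at least 10.4).

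Paralog ratios were compared with exact permutation tests. RPKM values were computed from counts, TMM-scaled library sizes and merged exon lengths of Gencode release 44, which held 99.97% of the counted genes on the same assembly. Of the 33 members, 20 share exonic bases with another gene. Of 22 pseudogene rows named after a member, 6 had a count, at most 114 in a library.

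The members and lists were chosen with earlier results of these data known. Values per library were given for the kinase module, for core members with an adjusted p below 0.05 in either fit and for the largest blocked changes of the wider lists. MED1, MED14, MED15, MED18, MED24 and MED26 were added after their values had been seen. Alternatives comprised limma-trend (version 3.58.1), DESeq2's Wald test and size factors (version 1.42.0), no scaling beyond library size, other filters, the replicate block, a loess correction for GC content and length (span 0.5) in the blocked fit, other lengths and module assignments, and the omission of libraries. All blocked fits, also the one with every library, have few residual degrees of freedom, and those without a replicate number have the fewest. Their p-values therefore rest largely on the dispersion shared over genes. The procedure was tested on counts simulated from the blocked model itself, which checked the recovery of changes put in. That check set no bound on false calls, so it does not show how many blocked calls in these data are false. The result for 1 marker gene is not reported here.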

Additional observations from a re-analysis of the deposited data

How the results depend on the processing

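Of 361 alternative values for 19 genes with a fold change, 272 kept their direction and side of the threshold, 77 passed it where the main value had not, 4 no longer passed and 8 changed sign. All 77 came from fits with the replicate block, and no setting without the block added a call. The 4 were MED12 without siCtrl library 1 or 2 or siMED12 library 1 or 2. Over all omissions of 1 library its log2 fold change ranged from -1.90 to -1.45 (edgeR, adjusted p up to 0.186), and 0 to 1 members were called lower. In the blocked fit without each replicate number MED12 lay between -1.91 and -1.41 and passed. Of 211 alternative counts, medians and paralog differences, 140 were the same.

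With the replicate block, 6 members were higher and 3 lower. The counts were 6 and 4 with DESeq2 size factors, 5 and 5 with the correction for GC content and length, 7 and 3 with library size only, and 4 to 5 and 2 to 3 without each replicate number. General transcription factors higher and lower were 1 and 1 with the block and with DESeq2 size factors, 0 and 2 with the correction, 2 and 1 with library size only, and 0 to 1 and 1 to 3 without each number. TFIID genes were 2 and 2 with the block and with DESeq2 size factors, 1 and 2 with the correction, 5 and 1 with library size only, and 1 to 3 and 1 to 2 without each number. The cause of these differences was not tested.

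The head median ranged from -0.16 to 0.01, the tail median from -0.01 to 0.11 and the kinase median without MED12 from 0.03 to 0.21 when 1 library was left out. In the blocked fit without each number the tail ranged from -0.01 to 0.04 and the kinase module from 0.10 to 0.15. The tail was at 0.07 with library size only, without and with the block, and at 0.16 with MED19 and MED27 to MED30 counted with the head. The kinase median was 0.18 with library size only, without and with the block, 0.13 with DESeq2 size factors in either fit, in the Wald test and when genes needed 1 CPM on average, and 0.06 with the correction for GC content and length. CDK8 turned to 0.01 with library size only (0.004888 with the block) and ranged from -0.19 to 0.10 when 1 library was left out, with 0.03 in 2 of the omissions. FBXW7 ranged from -0.13 to 0.22 without 1 library and was at -0.01 with the block and without replicate number 1. The ratio of CDK19 to CDK8 ranged from -0.11 to 0.07 without 1 library.

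The 95% interval of 11 of 33 members reached beyond 1.5-fold without the block and that of 4 of 33 with it, at the same depth and number of libraries. The lowest count of a member in a library was 45. The effect of depth was not tested.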
